A study of Mus musculus with 48 samples.

Results

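The 8 genes Col17a1, Itga6, Itgb4, Lama3, Lamb3, Col7a1, Dst and Plec encode parts of the hemidesmosome, the junction that fastens the basal layer of the epidermis to the basement membrane, and of the basement membrane fibrils attached to it. They were chosen by name for these roles, and all 8 were present among the 46983 genes of each deposited expression table. RNA had been sequenced from whole skin of C57BL/6 mice from 3 domains, chin, ventral and dorsal, at 6 hair cycle stages. These began with competent telogen, ran through early, mid and late anagen to catagen, and ended with refractory telogen. This gave 18 groups, of which 11 had 2 libraries and 7 had 3, or 43 libraries in all. A smaller table held 2 libraries of telogen ear skin, 3 of the ear cartilage/muscle complex, and the 2 dorsal competent telogen libraries of the larger table again. The ages and sexes of the animals are not given in the sources used here, no agent or transgene is named for any group, and nothing states that replicates of a group came from separate animals, so the p-values measure the spread between these libraries.

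Basal keratinocytes hold on to the dermis through a chain of proteins. Inside the cell the plakins encoded by Dst and Plec grip keratin filaments. In the membrane the integrin of Itga6 and Itgb4 and the transmembrane collagen of Col17a1 pass the link outward, where it meets the laminin with chains encoded by Lama3 and Lamb3. Type VII collagen, the product of Col7a1, forms the anchoring fibrils below. Loss of several of these proteins causes blistering of the skin. The hair follicle, which cycles through growth (anagen), regression (catagen) and rest (telogen), is continuous with the epidermis and is surrounded by the same membrane, and its stem cells in the bulge are known for high integrin and type XVII collagen levels. The comparisons address how far the RNA of these anchoring genes moved with the hair cycle, and whether it moved alike in the 3 skin domains. In whole skin, fewer cells of a type and less RNA per cell cannot be told apart.

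The genes are scattered over the mouse genome (GRCm38, GENCODE annotation), and only Lamb3 and Dst share a chromosome. Col17a1 spans chr19:47646344-47692094 on the minus strand, Itga6 chr2:71745616-71858416 on the plus strand and Itgb4 chr11:115974709-116008412 on the plus strand. Lamb3 lies at chr1:193207699-193343878 on the plus strand and Col7a1 at chr9:108953586-108984875 on the plus strand. The plakin genes Dst and Plec lie at chr1:33908225-34308661 on the plus strand and chr15:76170974-76232574 on the minus strand. The stretches just upstream of the annotated RefSeq starts of Col17a1, Lamb3, Col7a1 and Dst, the members with a promoter entry in the reference table, are shown because Col17a1 and Lamb3 moved together over the skin groups more closely than any other pair of the 8 while their upstream sequences had none of the searched motifs in common. Each is given 5′ to 3′ on the gene's own strand from GRCm38.p6, with annotated exon bases left out, and capitals mark a TATA-like TATAAA or a GC-box GGGCGG read on that strand.
Col17a1, chr19:47692095-47692292, minus strand: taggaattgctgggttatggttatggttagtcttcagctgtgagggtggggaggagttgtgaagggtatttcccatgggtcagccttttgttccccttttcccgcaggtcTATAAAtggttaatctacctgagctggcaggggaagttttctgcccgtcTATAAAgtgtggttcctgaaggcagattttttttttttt
Lamb3, chr1:193301744-193301992, plus strand: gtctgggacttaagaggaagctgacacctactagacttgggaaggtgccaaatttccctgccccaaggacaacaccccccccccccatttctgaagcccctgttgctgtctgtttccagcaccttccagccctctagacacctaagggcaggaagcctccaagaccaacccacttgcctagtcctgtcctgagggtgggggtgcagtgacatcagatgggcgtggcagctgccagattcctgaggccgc
Col7a1, chr9:108953336-108953585, plus strand: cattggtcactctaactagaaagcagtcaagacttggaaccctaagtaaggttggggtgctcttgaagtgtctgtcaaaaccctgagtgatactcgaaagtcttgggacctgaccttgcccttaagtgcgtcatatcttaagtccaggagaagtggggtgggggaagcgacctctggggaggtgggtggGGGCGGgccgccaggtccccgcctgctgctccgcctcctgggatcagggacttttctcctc
Dst, chr1:34011345-34011594, plus strand: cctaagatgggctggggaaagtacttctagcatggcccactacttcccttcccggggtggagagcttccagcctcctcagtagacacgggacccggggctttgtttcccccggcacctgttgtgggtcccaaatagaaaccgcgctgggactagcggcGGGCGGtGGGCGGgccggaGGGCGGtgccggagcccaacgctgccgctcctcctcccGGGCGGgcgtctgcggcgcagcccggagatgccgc
The Col17a1 stretch held TATAAA at 140 and at 91 bases before the RefSeq start. That start lies 52 annotated exon bases beyond the end of the printed stretch. The Col7a1 stretch held GGGCGG at 61 bases before the start, and the Dst stretch held it 4 times, at 92, 85, 73 and 35 bases. The Lamb3 stretch, and a further Dst start at chr1:34160010-34160259 that is not printed, held neither. The motifs TGANTCA (an AP-1-like site) and a pair of CATG cores spaced as in a p53-family site were searched as well and were in none of the 5 stretches. Both strands were searched, and no matches overlapped. Of 32851 promoter stretches of 250 bases, 12.4% held TATAAA, 32.7% GGGCGG, 6.75% TGANTCA and 0.49% the CATG pair. A match is only a run of letters.

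The values are FPKM, fragments normalised to transcript length and library size, so levels of different genes can be set side by side. The steps in the values imply about 6730000 to 28490000 fragments per library (median 12560000). At the length of each gene's longest annotated transcript, this puts between about 124 fragments (Lama3, lowest library) and 22478 fragments (Dst, highest library) behind a member's value. These are upper estimates where shorter transcripts were expressed. In 3 groups the libraries stood apart from what their labels name. The 2 dorsal competent telogen libraries and the 2 chin late anagen libraries were as alike as replicates, with a median gap of 0.088 to 0.104 in log2 level over 9450 genes, against 0.07 to 0.386 between replicates and 0.138 to 0.737 between other pairs of groups. The dorsal competent telogen libraries held summed FPKM of hair shaft and matrix genes of 4186 to 4220, against 928 to 975 in chin competent telogen, 854 to 1045 in ventral competent telogen and 319 to 359 in dorsal early anagen. High hair keratin levels were not limited to this telogen group. Krt33a averaged 1972 FPKM in it, and 575, 1945 and 1763 in chin, ventral and dorsal refractory telogen. Krt86 averaged 1071 FPKM in it, and 375, 975 and 669 in the same refractory telogen groups. The 2 dorsal catagen libraries stood apart in their levels of GC-rich transcripts, described with the integrin pair below. Ventral catagen replicate 1 carries an ear location tag but was closer to the other ventral catagen library (0.14) than to the nearer ear skin library (0.506). Markers of basal keratinocytes (Krt5, Krt14, Krt15, Trp63, Dsg3 and Cdh3) were all above 0 in every skin group.

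Col17a1, the transmembrane collagen of the hemidesmosome, had the widest range of group means of the 8 genes, second to Col7a1 (7.08-fold) once the 3 groups that stood apart are left out. In chin skin it averaged 76.6 ± 2.21, 47.4 ± 11.2, 40.01 ± 8.70, 21.8 ± 0.0495, 28.6 ± 1.99 and 116 ± 4.23 FPKM (SD, n = 2 or 3) from competent telogen through the anagen stages and catagen to refractory telogen. In ventral skin the same sequence was 69.8 ± 6.80, 139 ± 2.83, 28.9 ± 1.14, 44.3 ± 5.58, 21.1 ± 1.21 and 57.5 ± 19.0 FPKM. In dorsal skin it was 22.2 ± 0.559, 75.0 ± 8.40, 40.2 ± 2.46, 40.8 ± 2.97, 17.8 ± 0.757 and 66.8 ± 0.438 FPKM. The peak therefore stood at refractory telogen in the chin and at early anagen in both other domains. From ventral early anagen to dorsal catagen the group means spanned 7.78-fold, and 6.57-fold when chin late anagen, dorsal competent telogen and dorsal catagen were left out. Of the 17 neighbouring groups in the order of its levels, 12 overlapped in their libraries. Such overlaps were not counted over all genes, here or for the other members below.

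Itga6 and Itgb4 encode the 2 chains of the hemidesmosome integrin, which is assembled as a pair. Itgb4 followed an outline similar to that of Col17a1 at lower FPKM, with chin means of 14.8, 11.5, 9.85, 8.60, 7.32 and 19.0, ventral means of 10.98, 23.2, 7.83, 9.39, 8.31 and 14.4, and dorsal means of 8.37, 10.1, 7.80, 8.66, 3.43 and 14.5 in the same stage order. The SD of these groups ran from 0.177 to 4.41, and 13 of its 17 neighbours overlapped. Itga6 kept a narrower span of 3.28-fold between chin competent telogen at 69.0 ± 5.20 FPKM and ventral mid anagen at 21.1 ± 1.82 FPKM. Its chin means were 69.0, 60.4, 40.9, 27.8, 27.2 and 44.7 FPKM, its ventral means 34.4, 57.3, 21.1, 36.8, 31.3 and 41.2 FPKM, and its dorsal means 27.2, 32.5, 32.2, 38.9, 66.0 and 52.6 FPKM. The alpha chain thus had its dorsal maximum at catagen, where the beta chain had its minimum. Itga6 also pairs with the beta-1 chain in other cells, so its RNA need not stem from the basal layer alone.

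Lama3 and Lamb3 encode the alpha-3 and beta-3 chains of the laminin that the integrin binds. Lamb3 ranged from 5.09 ± 0.990 FPKM in ventral catagen to 28.6 ± 1.21 FPKM in ventral early anagen, a 5.62-fold span. Its chin means were 19.2, 11.6, 7.53, 5.10, 7.75 and 23.4 FPKM, its ventral means 15.4, 28.6, 7.86, 10.3, 5.09 and 12.1 FPKM, and its dorsal means 5.17, 19.1, 8.35, 9.06, 5.19 and 12.6 FPKM. The order of stages within each domain was close to that of Col17a1. Lama3, on the plus strand of chromosome 18 (chr18:12333819-12583013), had the lowest FPKM of the 8 genes, from 1.38 ± 0.0707 in dorsal competent telogen to 5.25 ± 0.690 in ventral early anagen. The Lama3 group means were 4.24, 3.12, 1.56, 1.67, 1.90 and 2.99 FPKM in chin, 2.92, 5.25, 1.81, 2.63, 1.95 and 2.85 in ventral and 1.38, 3.94, 2.83, 2.86, 1.95 and 3.36 in dorsal skin. At these levels a 1 FPKM offset in the log scale understates its fold changes. For both laminin chains 12 of 17 neighbours in the order overlapped.

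Col7a1, the anchoring fibril collagen, is made by keratinocytes and by dermal fibroblasts. It averaged 27.2, 23.8, 15.6, 11.3, 6.55 and 24.8 FPKM in chin, 18.2, 46.4, 12.1, 11.4, 6.70 and 17.0 in ventral and 9.62, 16.0, 7.16, 11.2, 7.03 and 21.3 in dorsal skin. Catagen held its lowest level in all 3 domains, with 6.03 to 7.75 FPKM in the 7 catagen libraries, and in dorsal skin mid anagen overlapped that range. The largest mean, ventral early anagen at 46.4 ± 2.70 FPKM, was 7.08-fold above the smallest, and 16 of 17 neighbours in the order overlapped.

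The group means of the plakin genes spanned 3.40-fold for Dst and 5.91-fold for Plec, or 3.92-fold for Plec without the 3 groups that stood apart. Dst, whose epithelial product lies in the hemidesmosome and whose other products serve neurons and muscle, averaged 46.8, 40.1, 36.2, 19.2, 17.6 and 59.99 FPKM in chin, 38.2, 53.3, 24.1, 23.7, 18.8 and 28.9 in ventral and 19.0, 28.7, 23.6, 25.2, 30.6 and 37.0 in dorsal skin. Plec, a linker found in many tissues including muscle, averaged 32.4, 33.2, 25.2, 24.3, 25.2 and 53.2 FPKM in chin, 23.1, 27.8, 16.4, 21.3, 18.8 and 32.6 in ventral and 24.7, 30.7, 18.6, 13.6, 8.99 and 22.9 in dorsal skin. Both had their highest group in chin refractory telogen. The products of each gene are not separated in gene-level FPKM, and Plec shares 205 exon bases with Parp10 on the same strand, so reads there could be credited to either gene.

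**Figure D1:**
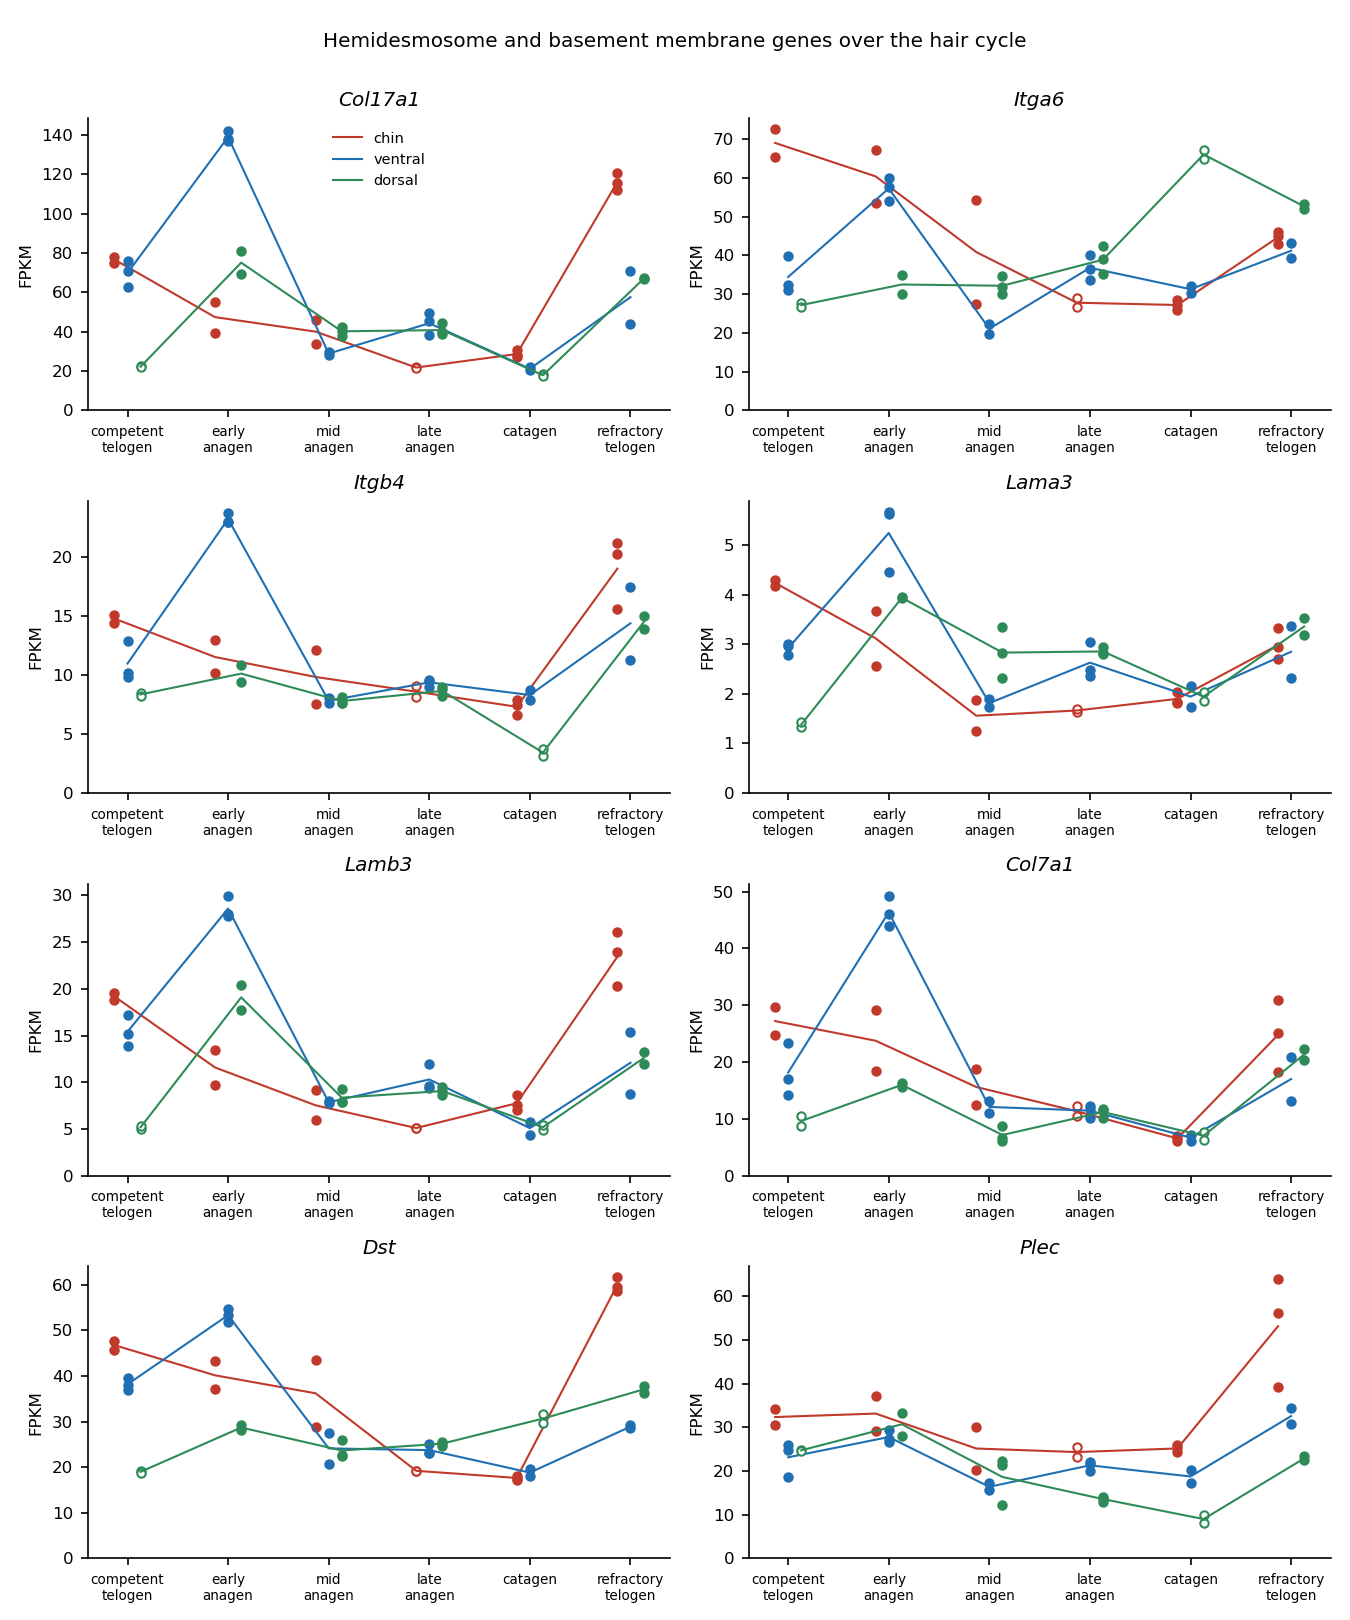
FPKM of each of the 8 genes (vertical axes, linear and starting at 0) against hair cycle stage, with 1 point per library, lines through the group means, and chin, ventral and dorsal skin in separate colours. Hollow points are the libraries of chin late anagen, dorsal competent telogen and dorsal catagen. Col17a1 runs from 17.31 to 142.11 FPKM, and its ventral early anagen libraries are the highest.

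All 8 genes differed over the stages within each domain by the limma F-test, against 66.2% of the 21257 genes tested in chin, 70.2% in ventral and 68.5% in dorsal skin. They also all passed the test for unlike stage courses in the 3 domains, where 73.3% of genes did, and all 8 passed again when the 3 groups that stood apart were left out. A pass is common among genes, so the single steps are given with their direction and size. In the steps between consecutive stages, 17 of 40 pairs of a gene and a step passed in chin (9 higher, 8 lower), 28 of 40 in ventral (17 higher, 11 lower) and 25 of 40 in dorsal skin (13 higher, 12 lower). Of all genes tested, 2.14% to 48% passed at a single step in chin, 5.93% to 42.5% in ventral and 2.68% to 43.7% in dorsal skin. Directions below hold under quantile normalization, the median of ratios and rescaling to TPM except where a sentence names a turn, and centring on the basal keratinocyte genes is described afterwards. In 36 comparisons these scalings moved the log2 changes of the 8 members by a median of up to 0.368, 0.47 and 0.249 respectively.

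In chin skin the anchoring genes rose together at the end of the cycle, and no member turned direction there under any scaling. Col17a1 stood at 28.06, 26.99 and 30.85 FPKM in the catagen libraries and at 120.44, 115.68 and 112.0 FPKM in refractory telogen. Dst stood at 17.13, 18.12 and 17.64 FPKM before and at 59.55, 58.62 and 61.81 FPKM after. The groups did not come near each other in either gene, and the share of all genes with such a gap was not counted. From catagen to refractory telogen all 8 genes rose, against 30.5% of genes called higher, with a member median of 1.37 log2 units beside 0.0854 over all genes tested. The rise was 1.98 ± 0.13 log2 units (SE) for Col17a1, 1.74 ± 0.19 for Col7a1, 1.71 ± 0.10 for Dst, 1.48 ± 0.15 for Lamb3 and 1.26 ± 0.14 for Itgb4. It was smaller for Plec (1.02 ± 0.17), Itga6 (0.70 ± 0.14) and Lama3 (0.46 ± 0.11), and the adjusted p of the 8 ran from 2.7e-14 to 0.0014. Lama3 lost its call under quantile normalization (0.21). Plec spread widely at refractory telogen, at 64.09, 39.17 and 56.25 FPKM, all above its catagen libraries at 25.85, 24.32 and 25.35. Skeletal muscle markers summed to 8428 to 12901 FPKM in these refractory telogen libraries and to 2110 to 2237 FPKM in chin catagen, and their part in the rise of Plec and Dst, which muscle also expresses, was not tested.

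The earlier chin steps brought fewer calls, and 3 of the 4 hung on single libraries. From competent telogen to early anagen Col17a1 (−0.70 ± 0.16) and Lamb3 (−0.70 ± 0.18) fell, against 0.875% of genes called lower, and neither kept its call without chin competent telogen replicate 1, replicate 2, or early anagen replicate 2. From early to mid anagen Itga6 (−0.62 ± 0.17), Lama3 (−0.68 ± 0.14) and Lamb3 (−0.57 ± 0.18) fell, with 14.5% of all genes, and none of the 3 did without early anagen replicate 1. The mid anagen libraries were unlike, with Itga6 at 27.39 and 54.33 FPKM and Dst at 28.89 and 43.5 FPKM. Without mid anagen replicate 2, 6 members fell at this step, and without mid anagen replicate 1, only Lama3. Into late anagen, whose libraries resembled dorsal competent telogen, Col17a1 (−0.83 ± 0.16) and Dst (−0.85 ± 0.12) fell, with 12.3% of genes, and both kept their calls as single libraries were left out. Late anagen to catagen brought a rise of Lamb3 (0.52 ± 0.17) and a fall of Col7a1 (−0.71 ± 0.21), where 13.1% of genes changed, and neither call held without chin late anagen replicate 1 or replicate 2, or catagen replicate 1.

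Ventral skin had its sharpest changes around early anagen. In the competent telogen libraries Col17a1 stood at 76.04, 70.82 and 62.56 FPKM, in early anagen at 137.67, 136.85 and 142.11, and in mid anagen at 28.06 and 29.67. Itgb4 stood at 12.92, 9.81 and 10.22 FPKM, then 23.74, 23.02 and 22.98, then 8.02 and 7.63. Col7a1 stood at 23.28, 17.02 and 14.19 FPKM, then 43.89, 49.24 and 45.98, then 13.2 and 11. In each of the 3 genes every early anagen library lay above every library of both neighbouring stages. How many of all genes did so was not counted. From competent telogen to early anagen 7 of 8 genes rose, against 13.2% of genes called higher, while the median of all genes moved by −0.102 log2 units and the member median by 0.790. Col7a1 rose by 1.33 ± 0.19 log2 units, Itgb4 by 1.03 ± 0.14, Col17a1 by 0.99 ± 0.13, Lamb3 by 0.85 ± 0.15, Itga6 by 0.73 ± 0.14, Lama3 by 0.67 ± 0.11 and Dst by 0.47 ± 0.10. Plec had 0.27 ± 0.17 (adjusted p = 0.23), and passed under the median of ratios (0.49) and quantile normalization (0.56).

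From early to mid anagen all 8 genes fell in ventral skin, against 25.6% of genes called lower, with a member median of −1.43 log2 units beside −0.0926 over all genes. Col17a1 (−2.23 ± 0.14), Col7a1 (−1.86 ± 0.21) and Lamb3 (−1.74 ± 0.17) fell most. Itgb4 (−1.46 ± 0.15), Itga6 (−1.40 ± 0.16), Lama3 (−1.14 ± 0.13) and Dst (−1.13 ± 0.11) followed, and Plec (−0.73 ± 0.19) fell least. Neither of these ventral steps lost a call when a single library was left out. Basal keratinocyte markers summed to 4955 to 5795 FPKM at ventral competent telogen, 13247 to 14055 at early anagen and 3496 to 3514 at mid anagen. In sum they thus moved in the same direction as the anchoring genes at both steps. Trp63, 1 of these markers, rose far less than the sum, with means of 60.3, 65.0 and 28.9 FPKM. Suprabasal keratinocyte markers (6204 to 7016, then 9139 to 9437, then 2872 to 4045), Schwann cell markers (49.7 to 85.8, then 212 to 230, then 48.5 to 51.5) and endothelial markers (23.9 to 28.0, then 68.3 to 71.5, then 17.0 to 19.0) rose and fell in summed FPKM as well. Dermal fibroblast markers went the other way, from 5998 to 6169 through 1944 to 2008 to 3858 to 3875 FPKM. The part of these cell types in the changes was not tested beyond the keratinocyte centring below.

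The later ventral steps were milder. Into late anagen Col17a1 (0.59 ± 0.14), Itga6 (0.78 ± 0.16) and Lama3 (0.36 ± 0.13) rose, against 12.6% of genes, and Lama3 lost its call when any 1 of 4 libraries was left out (late anagen replicates 1 and 2, mid anagen replicates 1 and 2). Into catagen Col17a1 (−1.03 ± 0.14), Lamb3 (−0.89 ± 0.17) and Col7a1 (−0.69 ± 0.21, adjusted p = 0.049) fell, against 3.10% of genes called lower, and Col7a1 lost its call whichever library of either stage was left out. From catagen to refractory telogen 7 of 8 rose, against 14.9% of genes, led by Col17a1 (1.36 ± 0.16), Col7a1 (1.2 ± 0.23) and Lamb3 (1.07 ± 0.18), with Itga6 at 0.39 ± 0.17 (adjusted p = 0.086). Plec (0.77 ± 0.21), Itgb4 (0.70 ± 0.17), Dst (0.59 ± 0.12) and Lama3 (0.38 ± 0.14) also rose. Lama3 lost its call without ventral catagen replicate 1, Plec without catagen replicate 2, and Itgb4 and Lama3 without refractory telogen replicate 1.

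In dorsal skin the laminin chains and Col17a1 moved most at the first step. Lamb3 stood at 5.01 and 5.34 FPKM in the competent telogen libraries and at 20.43 and 17.75 FPKM in early anagen, and Col17a1 at 22.58 and 21.79 FPKM against 80.99 and 69.11 FPKM. At this step 5 genes rose, against 35.2% of genes called higher. They were Col17a1 (1.71 ± 0.16), Lamb3 (1.70 ± 0.18), Lama3 (1.05 ± 0.14), Col7a1 (0.68 ± 0.23) and Dst (0.57 ± 0.12), and Col7a1 lost its call without competent telogen replicate 1 or either early anagen library. The start of this step is the group that resembled chin late anagen. From early to mid anagen 6 fell, against 30.1% of genes, with Lamb3 (−1.10 ± 0.17), Col7a1 (−1.07 ± 0.21) and Col17a1 (−0.88 ± 0.14) leading and Plec (−0.73 ± 0.19), Lama3 (−0.37 ± 0.13) and Dst (−0.27 ± 0.11, higher under the median of ratios) behind. Without dorsal early anagen replicate 1 only the first 3 of these kept their calls.

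From mid to late anagen no member passed in dorsal skin by limma, where 2.68% of genes did. At unadjusted p Col7a1 (0.59 ± 0.19) and Plec (−0.39 ± 0.17) were under 0.05, as were 2304 of the 21257 genes, and without mid anagen replicate 3 Plec passed the adjusted test. From late anagen to catagen Itga6 (0.75 ± 0.16) and Dst (0.27 ± 0.11) rose, against 20.0% of genes called higher, and the other 6 fell, against 18.7% called lower. From catagen to refractory telogen 6 rose, against 19.1% of genes. These were Col17a1 (1.85 ± 0.16), Itgb4 (1.81 ± 0.17), Col7a1 (1.48 ± 0.23), Plec (1.26 ± 0.21), Lamb3 (1.13 ± 0.18) and Lama3 (0.57 ± 0.14), with Dst at 0.27 ± 0.12 and Itga6 at −0.32 ± 0.17. Both steps rest on the dorsal catagen libraries.

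**Figure D2:**
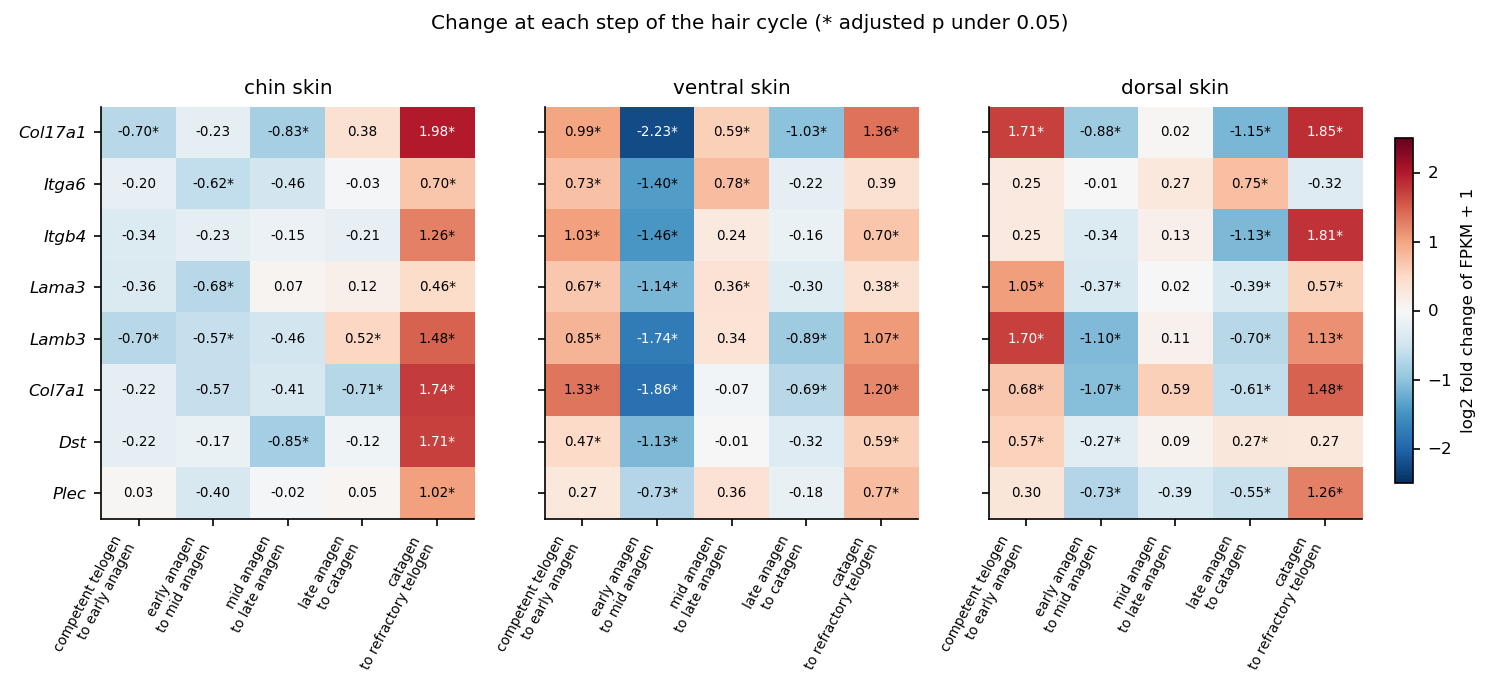
Heat maps of the log2 fold change of FPKM + 1 for each of the 8 genes (vertical axis) at the 5 consecutive stage steps (horizontal axis) in chin, ventral and dorsal skin, red for higher and blue for lower at the later stage, with an asterisk where the limma adjusted p was under 0.05. The last chin step is the step at which all 8 genes rise with an asterisk, with Col17a1 at 1.98. The ventral step from early to mid anagen is the step at which all 8 fall with an asterisk, with Col17a1 at −2.23. Several ventral and dorsal directions turn on the keratinocyte centring described next.

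Because basal keratinocytes make most of these proteins, the steps were also read after centring each library on its mean log2 level of the 6 basal keratinocyte markers. Of the 70 pairs of a gene and a step that passed, 33 passed in the same direction after centring and 20 turned direction, 8 of them with a call in the new direction. Centring moves every gene of a library by the same amount, and the share of all genes kept or turned was not counted. Col17a1 kept 11 of its 12 calls and Lamb3 6 of 12. Col7a1 kept 5 of 10, Itgb4 3 of 6, Dst 3 of 8, Itga6 2 of 6, Lama3 2 of 10 and Plec 1 of 6. The member with the largest share of calls kept was Col17a1, although Krt15, which is in the centring list, is also the gene most like it over the 18 groups.

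The chin rise from catagen to refractory telogen held after centring for 7 of 8 genes, with Lama3 at 0.03. The ventral rise into early anagen did not hold for most of them. Krt5 and Krt14, the keratin pair of the basal layer, rose there by 1.29 and 1.41 log2 units, and after centring Itga6 (−0.07), Lama3 (−0.13) and Dst (−0.32) turned lower while Lamb3 (0.06) lost its call. At the next step Krt5 and Krt14 fell by 1.79 and 1.61 log2 units, and Itga6 (0.03), Lama3 (0.29), Dst (0.31) and Plec (0.71) turned higher. Itgb4 (−0.02) and Col7a1 (−0.42) lost their calls there. Further turns came in ventral skin for Col17a1 and Lama3 into late anagen and for Lama3 into refractory telogen, and in dorsal skin for Dst into early anagen, Lama3 and Dst into mid anagen, Lama3, Lamb3, Col7a1 and Plec into catagen, and Lama3, Lamb3 and Plec into refractory telogen.

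**Figure D3:**
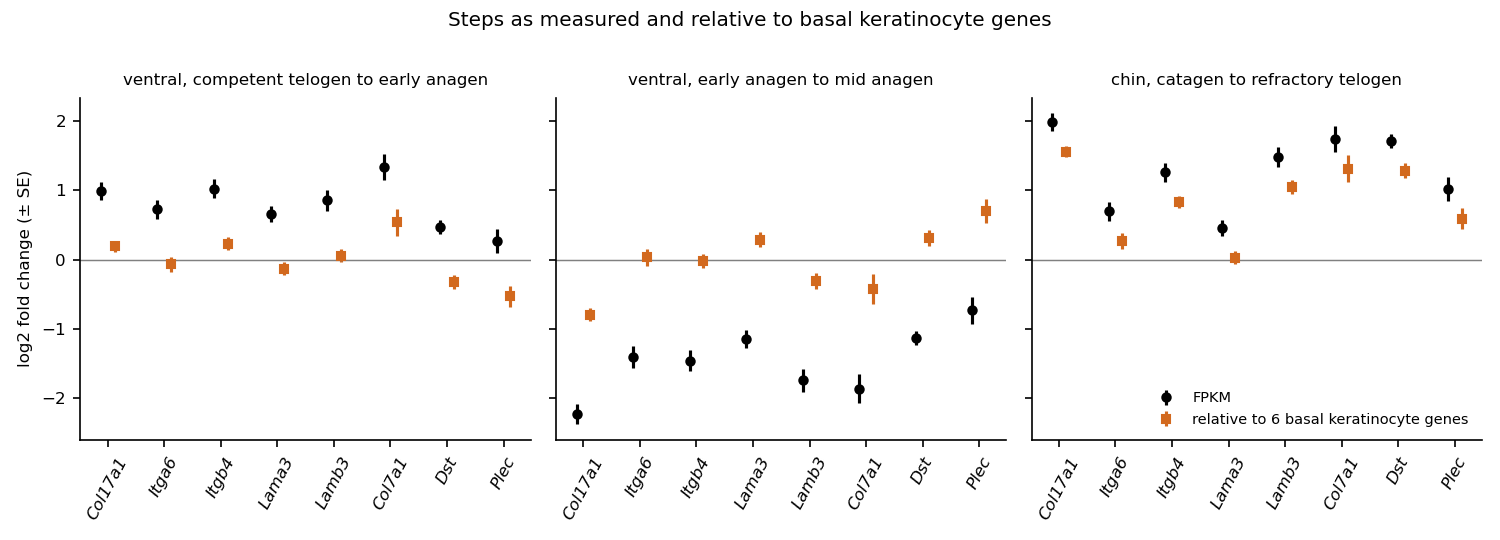
Log2 fold change (vertical axis, bars ± SE) of each of the 8 genes at 2 ventral steps and 1 chin step, from the deposited FPKM (black circles) and relative to 6 basal keratinocyte genes (orange squares). Relative to those genes most ventral changes lie near 0 or across it, as Lama3 does at −0.13 and 0.29, while Col17a1 stays below 0 from early to mid anagen and 7 of 8 genes stay clearly above 0 at the chin step.

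Differences between the domains were largest at the 2 stages that frame the start of growth. At competent telogen 7 of 8 genes differed among domains, against 54.0% of genes, with Plec outside (adjusted p = 0.092). The same 7 stood below chin skin on the dorsal side, where 27.5% of genes were called lower, by −1.74 ± 0.16 log2 units for Col17a1, −1.71 ± 0.18 for Lamb3, −1.41 ± 0.23 for Col7a1, −1.31 ± 0.17 for Itga6, −1.26 ± 0.12 for Dst, −1.14 ± 0.14 for Lama3 and −0.75 ± 0.17 for Itgb4. Basal keratinocyte markers summed to 3858 to 3944 FPKM in dorsal and 6836 to 7289 FPKM in chin competent telogen. After centring on them 6 of the 7 kept their calls, from −1.02 for Col17a1 to −0.42 for Lama3, while Itgb4 (−0.03) lost its call. Without the dorsal competent telogen and chin late anagen libraries only Itga6 and Lama3 differed, and both were lower in ventral than in chin skin (−0.99 ± 0.16 and −0.42 ± 0.13 in the fit of all libraries). That test compared ventral with chin skin alone, where 23% of genes passed in the fit of all libraries.

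At early anagen 7 genes differed among domains, against 51.6% of genes, again without Plec, and none of the 3 groups in doubt enters this stage. Col17a1 stood at 55.29 and 39.45 FPKM in chin, 137.67, 136.85 and 142.11 in ventral and 80.99 and 69.11 in dorsal skin, so that the domains did not overlap. Such gaps were not counted over all genes. Ventral over chin, 6 genes were higher, against 13.0% of genes, with Col17a1 at 1.55 ± 0.14, Lamb3 at 1.25 ± 0.17, Col7a1 at 0.97 ± 0.21, Itgb4 at 0.96 ± 0.15, Lama3 at 0.61 ± 0.13 and Dst at 0.41 ± 0.11, of which Lama3 (−0.21) and Dst (−0.41) turned after centring on basal keratinocyte genes. Col7a1 (0.65), Lama3 (0.41) and Dst (0.30) lost their calls without chin early anagen replicate 2. Dorsal over ventral, 7 genes were lower, against 14.0% of genes, from −1.48 ± 0.21 for Col7a1 and −1.13 ± 0.15 for Itgb4 to −0.33 ± 0.13 for Lama3, which turned after centring and lost its call without either dorsal library or ventral replicate 1 or 3. Lamb3 (−0.56 ± 0.17) lost its call without dorsal replicate 2.

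In mid anagen 5 genes differed among domains, against 38.1% of genes (Col17a1, Itga6, Lama3, Col7a1 and Dst), and 4 to 7 did as single libraries were left out. When only the mid anagen libraries were fitted, Col7a1 alone passed (adjusted p = 0.043). Without chin replicate 1 Itgb4 and Plec joined, without chin replicate 2 Dst dropped out, and without either ventral library Col17a1 did. In late anagen 5 differed, against 20.8% of genes (Col17a1, Lama3, Lamb3, Dst and Plec), 3 (Col17a1, Lamb3 and Plec) without either chin library, and none by limma without both chin libraries and the dorsal competent telogen libraries, where Plec was under 0.05 at unadjusted p. The last of these tests compared dorsal with ventral skin alone, where 3.14% of genes passed in the fit of all libraries. In that fit Plec was lower in dorsal than in ventral late anagen, at −0.61 ± 0.17 (adjusted p = 0.044). At catagen 6 differed, against 42.9% of genes, with Lama3 and Col7a1 outside, and none did by limma without dorsal catagen, where Col17a1, Lamb3 and Plec were under 0.05 at unadjusted p. Without dorsal catagen the test compared ventral with chin skin alone, where 5.19% of genes passed in the fit of all libraries. At refractory telogen 5 differed, against 42.2% of genes, and the chin was highest in each.

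The chin at refractory telogen exceeded ventral skin in Col17a1 (−1.04 ± 0.14, ventral over chin), Dst (−1.03 ± 0.11), Lamb3 (−0.94 ± 0.17), Plec (−0.66 ± 0.19) and Itgb4 (−0.40 ± 0.15), against 24.7% of genes called lower in ventral skin. It exceeded dorsal skin in Plec (−1.15 ± 0.19, dorsal over chin), Lamb3 (−0.84 ± 0.17), Col17a1 (−0.79 ± 0.14) and Dst (−0.68 ± 0.11), against 27.2% called lower there. Col17a1 had the same order in single libraries, from 112.0 to 120.44 FPKM in chin, 44.1 and 70.94 in ventral and 66.51 and 67.13 in dorsal skin. Itgb4 lost its ventral difference without chin replicate 1 or 3 or ventral replicate 2, and Plec without chin replicate 1 or ventral replicate 2.

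At dorsal catagen the integrin pair came apart. Itga6 stood at 64.91 and 67.18 FPKM in dorsal catagen, against 35.25, 39.12 and 42.34 in dorsal late anagen. Itgb4 stood at 3.14 and 3.72 FPKM against 8.97, 8.2 and 8.81. The alpha chain was higher and the beta chain lower in both libraries than in all 3 before. How many of all genes had such a gap was not counted, and 38.7% of genes were called at this step. The ratio of Itga6 to Itgb4 FPKM was 18.1 and 20.7 in these 2 libraries and 2.03 to 5.29 in the other 41, and the ratio of Dst to Plec was 3.23 to 3.62 against 0.663 to 2.14. The 6 genes that fell from late anagen, in log2 units, were Col17a1 (−1.15 ± 0.14), Itgb4 (−1.13 ± 0.15), Lamb3 (−0.70 ± 0.17), Col7a1 (−0.61 ± 0.21), Plec (−0.55 ± 0.19) and Lama3 (−0.39 ± 0.13). Dst lost its call whichever library was left out, Col7a1 without catagen replicate 1 (−0.48) or late anagen replicate 2 or 3, Plec without catagen replicate 2 (−0.43) or late anagen replicate 1 or 2, and Lama3 without catagen replicate 1 (−0.35).

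The same 2 libraries differed from the rest in base composition. Log2 levels fell by 0.51 for each 10 percentage points of transcript GC content in both, against slopes of −0.15 to 0.22 in the other 41. Itga6 and Dst transcripts are 48.9% and 49.5% GC and Lama3 51.7%, while Lamb3 is 55.6%, Col17a1 57.0%, Itgb4 60.0%, Plec 61.3% and Col7a1 61.6%. The 2 genes that rose were thus the 2 of lowest GC content. After each library was corrected on GC content, an alternative chosen after seeing the data, Col17a1 (−0.70), Itga6 (0.71) and Itgb4 (−0.56) kept their calls at this step, Lama3 (−0.25), Lamb3 (−0.33) and Dst (0.27) lost them, and Col7a1 (0.01) and Plec (0.06) turned direction. Basal keratinocyte markers summed to 2192 to 2250 FPKM here and to 4606 to 4742 in dorsal late anagen. Trp63, 1 of these markers, went the other way, at 69.8 FPKM here and 57.0 in dorsal late anagen. The part of base composition in these 2 libraries was not tested beyond this correction.

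**Figure D4:**
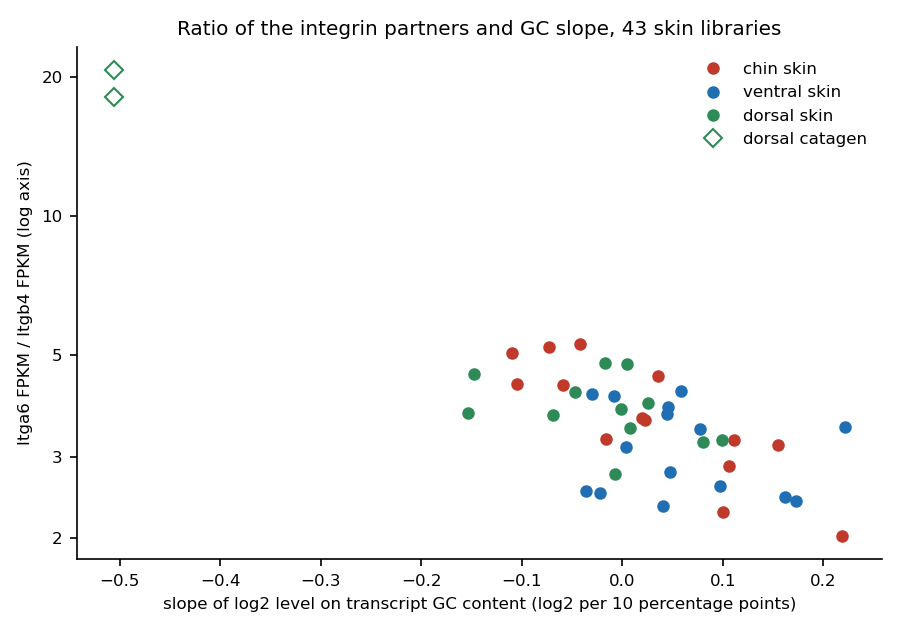
Ratio of Itga6 to Itgb4 FPKM (vertical axis, log scale) against the slope of log2 level on transcript GC content (horizontal axis, log2 units per 10 percentage points) in the 43 skin libraries, coloured by domain, with dorsal catagen as open diamonds. The 2 dorsal catagen libraries sit at slopes of −0.51 and ratios of 18.1 and 20.7, away from the other 41.

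Over the 18 group means of log2(FPKM + 1), the 28 pairs of members had Pearson correlations from 0.111 (Itga6 with Plec) to 0.979 (Col17a1 with Lamb3), with a median of 0.706. The groups share libraries, depth and tissue composition, so these are descriptions. Lama3 and Lamb3, chains of the same laminin, had 0.888, and Itga6 and Itgb4, chains of the same integrin, 0.32. Without chin late anagen, dorsal competent telogen and dorsal catagen the range was 0.374 to 0.973, the median 0.747 and the integrin pair 0.749 over 15 groups.

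The genes most like each member among 9471 expressed genes were taken by the same measure. For Col17a1 they were Krt15 (0.993), a keratin of basal and bulge keratinocytes, Lamb3 (0.979) and Il34 (0.976), and for Lamb3 they were Sptlc3 (0.981), Col17a1 (0.979) and Emb (0.979). Itgb4 was most like Stk40 (0.964), Prrg2 (0.956) and Atp6v0a4 (0.955), and Itga6 most like Csnk2a2 (0.961) and Kmt2c (0.944). Lama3 had Anxa8, Cyp2j6 and Sdr9c7, each at 0.937. Col7a1 had Lce1m (0.943), Cxcl16 (0.925) and Lce1b (0.921), where the Lce genes encode proteins of the cornified layer. Dst had Ikzf2 (0.959), Abhd12b (0.949) and Chd3os (0.948), and Plec had Slc35c2 (0.88), Pex11a (0.875) and Trpt1 (0.871). Over the 15 groups Krt15 stayed first for Col17a1 (0.989), while Emb came first for Lamb3 (0.98).

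In telogen ear skin the anchoring genes stood well above the dorsal skin of the same table. Col17a1 was at 140.23 and 117.28 FPKM in ear skin, 22.58 and 21.79 in dorsal competent telogen skin and 0.27, 0.05 and 0.56 in the cartilage/muscle complex. Col7a1 was at 63.33 and 54.03, 8.66 and 10.59, and 2.57, 2.96 and 4.02 FPKM in the same order. Neither gene overlapped between any 2 of the tissues, and the share of all genes with such gaps was not counted. Both Col17a1 and Col7a1 were picked out by the study from these libraries, which makes their direction here no independent evidence. All 8 genes were higher in ear than in dorsal skin, against 44.7% of genes, and none turned under a scaling, with a member median of 1.25 log2 units beside 0.330 over all genes. The differences were 2.49 ± 0.19 for Col7a1, 2.48 ± 0.19 for Col17a1, 2.01 ± 0.13 for Lamb3, 1.26 ± 0.10 for Itgb4, 1.24 ± 0.07 for Dst, 1.10 ± 0.10 for Lama3, 0.99 ± 0.06 for Itga6 and 0.69 ± 0.11 for Plec, which lost its call under the median of ratios (0.21).

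The dorsal libraries behind this comparison are those that resembled chin late anagen. With dorsal refractory telogen in their place, 6 of 8 genes stayed higher in ear skin, namely Col7a1 (1.41), Col17a1 (0.93), Lamb3 (0.88), Plec (0.80), Itgb4 (0.54) and Dst (0.31), and Itga6 (0.06) and Lama3 (0.22) did not pass. Basal keratinocyte markers summed to 8790 to 9274 FPKM in ear skin and to 3858 to 3944 in dorsal competent telogen, while Trp63 among them averaged 46.4 and 40.6. Suprabasal keratinocyte markers stood at 11546 to 13076 against 1770 to 1775, dermal fibroblast markers at 10363 to 10697 against 1243, and hair matrix and shaft markers at 29.1 to 31.1 against 4186 to 4220. After centring on the basal keratinocyte genes all 8 members kept their calls in ear over dorsal competent telogen skin, from 0.37 for Plec to 2.17 for Col7a1. The part of the dermal fibroblasts, which also make Col7a1, was not tested.

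The cartilage/muscle complex lies beneath the ear skin and holds little epidermis, with basal keratinocyte markers at 4.14 to 5.88 FPKM in sum and Dsg3 at 0, against skeletal muscle markers at 12159 to 14340 and cartilage markers at 1358 to 1742. Against ear skin 6 members were lower there, with 38.5% of genes called lower, and 2 were higher, with 28.0% called higher. Col17a1 (−6.66 ± 0.17), Col7a1 (−3.85 ± 0.17) and Itgb4 (−3.13 ± 0.09) had the largest deficits, and Itga6 (−1.38 ± 0.05), Lama3 (−1.35 ± 0.09) and Dst (−0.38 ± 0.06, not called under quantile normalization) were lower. These 6 directions turned when libraries were centred on the keratinocyte markers, which are themselves near 0 in this tissue. Itga6 kept 20.5 ± 0.550 FPKM and Dst 35.2 ± 1.61 FPKM.

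Plec and Lamb3 went the other way. Plec was at 52.47, 62.47 and 51.54 FPKM in the complex and at 43.2 and 37.93 in ear skin, a difference of 0.44 ± 0.10 that fell short of the threshold after rescaling to TPM (0.18) and without the ear skin library at 37.93 FPKM (0.35). The replicate numbers of the 2 ear skin columns do not match those of the labels, so these libraries are named by their values. Lamb3 was at 28.83, 34.88 and 28.1 FPKM in the complex, 26.23 and 21.85 in ear skin and 5.01 and 5.34 in dorsal skin. All 3 libraries of the complex were above both of ear skin, but the difference of 0.33 ± 0.12 (adjusted p = 0.0498) did not survive a pseudocount of 0.1, no filter, no variance trend, rescaling to TPM (0.08), or leaving out complex replicate 1 (0.37), complex replicate 2 (0.24) or the ear skin library at 21.85 FPKM (0.21). How many of all genes had every complex library above both of ear skin was not counted. The laminin chains came apart in the complex. The ratio of Lamb3 to Lama3 FPKM was 26.7 to 38.3 there, against 5.69 to 6.03 in ear skin and 2.04 to 9.66 in the skin libraries. G0s2, a lipolysis inhibitor gene on the opposite strand within the span of Lamb3, was at 1084 to 1281 FPKM in the complex and at 54.6 to 63.0 in ear skin. It was singled out after its values were seen. The library kit does not mark strand and the 2 genes share no annotated exon bases, and whether G0s2 reads were counted for Lamb3 was not tested.

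Against dorsal skin the complex was higher in Lamb3 (2.35 ± 0.12), Plec (1.13 ± 0.10) and Dst (0.86 ± 0.06), with 42.8% of genes called higher, where Dst turned with dorsal refractory telogen in place of competent telogen (−0.07). It was lower in Col17a1 (−4.18 ± 0.17), Itgb4 (−1.87 ± 0.09), Col7a1 (−1.35 ± 0.17), Itga6 (−0.39 ± 0.05) and Lama3 (−0.25 ± 0.09), with 28.3% called lower, and these 5 turned on the keratinocyte centring. Lama3 lost this call whichever of the 5 libraries of the complex and of dorsal skin was left out.

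**Figure D5:**
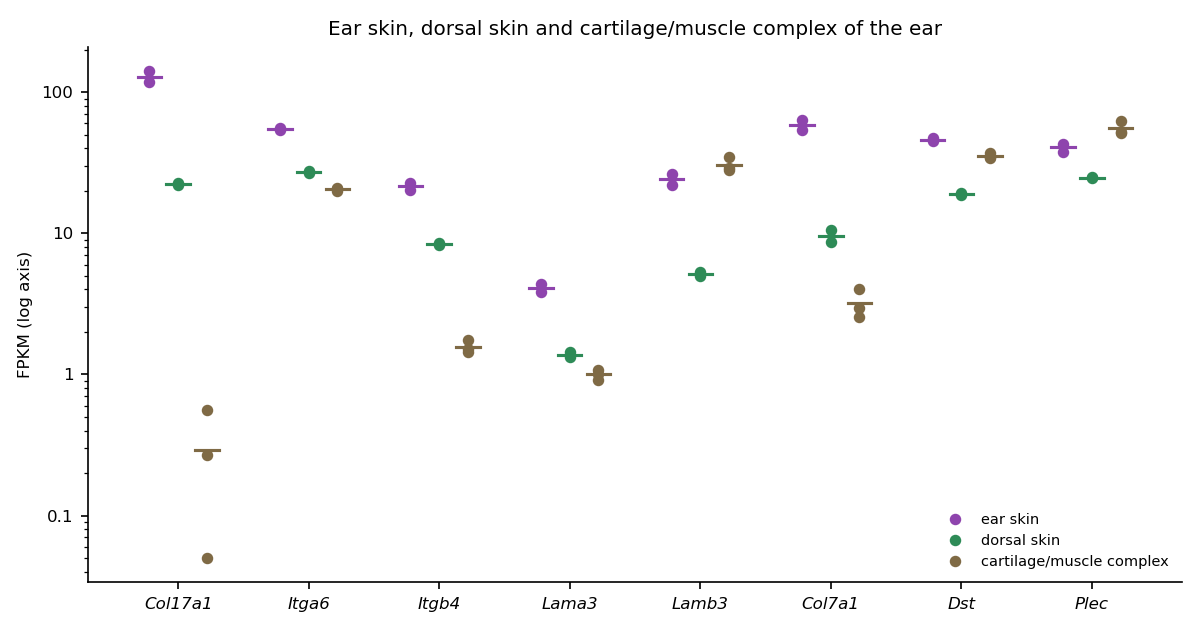
FPKM (vertical axis, log scale) of the 8 genes in the libraries of ear skin, ear cartilage/muscle complex and dorsal competent telogen skin, with 1 point per library and a bar at each group mean. Col17a1 lies at 117.28 and 140.23 FPKM in ear skin and at 0.05 to 0.56 in the complex, while Lamb3 lies at 28.1 to 34.88 there.

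Of a wider list of 43 genes of the hemidesmosome, the lamina and the Fraser complex, 41 were expressed enough to test in the same fits. From chin catagen to refractory telogen 34 of the 41 rose and 2 fell, against 30.5% and 17.5% of all genes (31 to 34 and 1 to 3 as TPM, by median of ratios or by quantile normalization, but 18 and 5 after centring on basal keratinocyte genes, where 2 called genes turned), led by Ecm1 (1.47), an extracellular matrix glycoprotein, Sparc (1.28), a collagen-binding matrix protein, and Lama4 (1.25). Cd151 (0.55), a tetraspanin partner of the integrin, was among those that rose. In ventral skin, from competent telogen to early anagen, 10 of the 41 rose and 15 fell, against 13.2% and 29.3% of all genes (10 and 14 as TPM, 17 and 11 by either of the other scalings, and 3 and 32 after centring, where 7 turned), with Ddr1 (1.12), a collagen receptor, rising, and Sparc (−1.27) and Nid1 (−0.83), a link between laminin and type IV collagen, falling. Cd151 stood at 0.17 (adjusted p = 0.10). From early to mid anagen 2 rose and 27 fell, against 16.8% and 25.6% of all genes (1 to 3 and 22 to 27 by the 3 scalings), a direction that centring turned for 23 genes to 35 higher and 2 lower, with Ddr1 (−1.62), Agrn (−1.59) and Lama5 (−1.15) falling most.

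In dorsal skin 33 of the 41 rose into early anagen and 0 fell, against 35.2% and 8.24% of all genes (24 to 35 and 0 or 1 by the 3 scalings, but 9 and 5 after centring, where 11 turned). Into mid anagen 30 fell and 0 rose, against 30.1% and 9.09% of all genes (21 to 30 and 0 to 3 by the 3 scalings, 13 and 5 after centring, where 3 turned). In limma's test both counts of 0 were also 0 at an unadjusted p under 0.05. At late anagen to catagen, 9 rose and 10 fell, shares close to the 20.0% and 18.7% of all genes (5 to 9 and 10 by the 3 scalings, but 33 and 3 after centring), and Hspg2 (−1.82), Ddr1 (−1.75) and Col18a1 (−1.36) fell most, in the libraries with the steep GC slope. Ear skin over dorsal skin, 29 were higher and 1 lower, against 44.7% and 14.6% of all genes (21 to 35 and 0 to 6 by the 3 scalings, 20 and 5 after centring), led by Sparc (2.55), Ecm1 (2.43) and Lama2 (1.96). Cartilage/muscle complex over ear skin, 11 were higher and 24 lower, against 28.0% and 38.5% of all genes (7 to 12 and 22 to 26 by the 3 scalings), which centring turned to 39 and 2, with Fermt1 (−5.63), the kindlin of epithelia, Lama5 (−2.04) and Col4a6 (−1.96) lowest. The test for unlike stage courses in the 3 domains was passed by 40 of the 41, against 73.3% of all genes.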

How the data were processed

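RNA of whole skin and of ear cartilage/muscle complex had been reverse-transcribed from full-length messages, tagmented and sequenced as read pairs without strand information. The authors mapped them to the mm10 build with a GENCODE annotation, estimated transcript levels with RSEM 1.2.25, applied a batch correction whose form is not given in the sources used here, and deposited FPKM per gene, rounded to 2 decimals. No counts were used. The samples were grouped by domain, stage and tissue as labelled, and the 2 tables were fitted apart.

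Here log2(FPKM + 1) was fitted with limma 3.58.1 (empirical Bayes with a variance trend, Benjamini-Hochberg adjustment over all genes tested, threshold 0.05). A gene entered a fit when 2 or more libraries reached 0.5 FPKM, which left 21257 genes over 43 skin libraries in 18 groups and 19299 over the 7 ear libraries, with all 8 members kept in both. Fold changes are on the log2(FPKM + 1) scale and understate those of low genes. Every 2-sided comparison of stages, domains and tissues came from these 2 fits, so the spread is shared by all groups. Fragment depth was estimated from the step size of low FPKM values of 12140 single-transcript genes, and covers counting error only. Promoter stretches were from RefSeq on GRCm38.p6, which had entries for 4 of the 8 members, and transcript GC content and loci were from GENCODE on GRCm38.

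The members and gene lists were chosen with earlier results of these data known. Named outside the 8 members were Krt5, Krt14 and Cd151, and the markers Trp63, Krt33a and Krt86. So were up to 3 genes of the wider list with the largest changes past the threshold in a comparison. The 3 genes most correlated with each member, among 9471 genes with a mean of at least 5 FPKM, were named too. A few genes that this rule names are not reported here. Markers of other cell types were read as summed levels. Alternatives changed the pseudocount, the filter, the scaling, the variance trend, the replicate block and the libraries. The fit was tested on simulated data.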

Additional observations from a re-analysis of the deposited data

Results flagged for a closer look

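The stage courses of the 8 genes differed between chin, ventral and dorsal skin in the test of the difference itself, the domain by stage term of the limma fit (10 terms, 43 libraries). The adjusted p was 3.7e-12 for Col17a1, 7.3e-12 for Dst, 1.4e-09 for Lamb3, 3.7e-09 for Itga6, 2.6e-07 for Lama3, 3.5e-06 for Itgb4, 1.5e-05 for Col7a1 and 0.002 for Plec. Over 56 alternatives the highest adjusted p was 1.7e-08 for Col17a1, 4.8e-07 for Dst, 2.8e-06 for Lamb3, 2.2e-05 for Itga6, 4.8e-05 for Itgb4, 0.00012 for Col7a1, 0.00087 for Lama3 and 0.035 for Plec. Among all genes tested 73.3% passed. From competent telogen to early anagen Col17a1 changed by −0.70 ± 0.16 log2 units in chin and by 0.99 ± 0.13 and 1.71 ± 0.16 in ventral and dorsal skin, and by −0.32, 0.19 and 1.04 after centring on basal keratinocyte genes. The chin call was lost without chin competent telogen replicate 1 or 2 or chin early anagen replicate 2, and the dorsal change starts from the libraries that resembled chin late anagen. Groups of 2 or 3 libraries are too small to test for a single outlying sample.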

How the results depend on the processing

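Of 389 values of the 16 counts of members under the alternatives, 379 stayed within 1.5 times, and of 1102 values of single members in 8 comparisons 1023 stayed on the same side, 47 lost and 5 gained a call and 27 turned. The 4 alternatives on GC content and on leaving out whole groups were chosen after seeing the data. Members differing among domains fell from 7 to 2 at competent telogen without chin late anagen and dorsal competent telogen (2 also without dorsal catagen as well), from 5 to 0 at late anagen under both of these, from 6 to 0 at catagen without dorsal catagen (0 also without all 3 groups), and from 5 to 1 at mid anagen when only that stage's libraries were fitted. Where a group was left out, the test at its stage compared only the 2 domains that remained. In the fit of all libraries those 2 domains differed in 23% of genes at competent telogen, 3.14% at late anagen and 5.19% at catagen. Under the GC correction 16 of 40 dorsal steps passed in place of 25. Leaving out single libraries gave 3 to 5 members at late anagen, 4 to 7 at mid anagen, 5 to 6 at catagen, 4 to 5 at refractory telogen, 14 to 20 chin steps, 26 to 28 ventral steps, 21 to 26 dorsal steps, and 6 to 8 and 7 members for the complex against ear and dorsal skin, while the other counts did not move.

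Centred on the 6 basal keratinocyte genes, these log2 changes turned: into ventral early anagen Itga6 (−0.068), Lama3 (−0.13), Dst (−0.32) and Plec (−0.53); into ventral mid anagen Itga6 (0.033), Lama3 (0.29), Dst (0.31) and Plec (0.71); into dorsal catagen Lama3 (0.55), Lamb3 (0.24), Col7a1 (0.33) and Plec (0.39); dorsal over chin competent telogen Plec (0.35). They also turned in ventral over chin early anagen for Lama3 (−0.21) and Dst (−0.41), and in the complex over ear skin for Col17a1 (0.24), Itga6 (5.52), Itgb4 (3.77), Lama3 (5.55), Col7a1 (3.05) and Dst (6.52). The GC correction turned Col7a1 (0.012) and Plec (0.062) into dorsal catagen. Itga6 in ventral over chin early anagen, not called, turned from −0.07 to 0.031 under the median of ratios, 0.016 under quantile normalization, 0.0597 under the GC correction, and ran from −0.228 to 0.0927 as chin early anagen replicate 2 or 1 was left out. The cause was not tested.

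A replicate block changed none of these counts by over 1.5 times, with 17, 27 and 25 steps called in chin, ventral and dorsal skin, and 8 members with unlike courses. The numbers did not pair the samples: over 327 same-number pairs the correlation of deviations ran from −0.174 to 0.162, and 16 of 43 libraries correlated best with their own number. At a minimum of 5 FPKM Lama3 left the ear fit and gave no value there. With 2 or 3 libraries a group, and about 124 to 1103 fragments behind Lama3 at the length of its longest transcript, small changes could not be detected.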
